A study of Mus musculus with 12 samples.

Results

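Gene expression in the anti-hemagglutinin (HA) pulldown of ribosomes (IP) was compared with the input RNA of the same white matter sample in Tie2-Cre:Rpl22-HA mice fed the control-fat diet (CFD, fat giving 10% of kcal). The comparison held 6 of the 12 libraries of the series: the IP and the input of animals 489, 555 and 556. They were paired by the sample number in the titles, which was read as the animal. The other 6 libraries, the IP and input of animals 516, 517 and 676 fed the high-fat diet (HFD, fat giving 60% of kcal), shared the spread estimate of the fit and are set beside the CFD values as a separate comparison with no library in common. All 6 mice were males of 1 genotype, which carries Cre recombinase under the Tie2 promoter and a floxed allele of Rpl22 that gains an HA tag after recombination, so no mouse lacked the driver and no pulldown from an untagged mouse was analysed here. The age of these mice is not given in the labels.

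In a RiboTag mouse, Cre recombination swaps the last exon of the ribosomal protein gene Rpl22 for a copy that ends in an HA tag, so that ribosomes of Cre-expressing cells, with the messenger RNA (mRNA) they are translating, can be pulled down from whole tissue lysate. The mouse gene symbol of Tie2 is Tek, a receptor tyrosine kinase of endothelial cells that binds angiopoietins, and Tie2-Cre also recombines in much of the blood lineage. RNA that is carried along without the tag, such as that of abundant neighbouring cells, enters an IP as background. Brain white matter consists of myelinated axons, oligodendrocytes and their progenitors (OPCs), astrocytes, microglia and vessels, and neuronal cell bodies lie mainly in the adjoining grey matter.

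The IP held 94 of 14253 tested genes at a higher level than the input (0.66%) and 38 at a lower level (0.267%), together 0.926%, at an adjusted p under 0.1 by edgeR's quasi-likelihood test with Benjamini-Hochberg adjustment. By the same test 1357 of the 14253 genes had an unadjusted p under 0.05 in either direction, the level for such counts in the lists below. Among the 12 genes with the smallest p on the higher side were Ppp1r9b (spinophilin, which binds actin and protein phosphatase 1 in dendritic spines), Plec (plectin, a cytoskeletal crosslinker), Shank1 (a postsynaptic scaffold), the kinases Ttbk1 and Adrbk1 and the Arf regulators Iqsec1, Git1 and Agap2. Malat1, a nuclear long noncoding RNA, and Cdr1, the locus of a circular RNA rich in miR-7 sites, had the smallest p on the lower side, which also held Snap25 (a SNARE protein of vesicle fusion). EdgeR called no endothelial, mural cell, glial or erythroid marker in either direction, while DESeq2, which called 601 genes higher and 806 lower in all, called 1 to 3 genes of each of these lists. Leaving out 1 animal with both its libraries gave 34 higher and 18 lower without animal 489, 124 and 45 without 555, and 57 and 17 without 556, and a fit without the animal pairing called 18 and 2.

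The 3 IP libraries held 28138509 to 29639332 counts and the 3 inputs 19567186 to 25319253. Rn45s (the precursor of ribosomal RNA), Lars2 and Mir6236 took 40.4% to 44.2% of the counts in IP and 8.99% to 14.9% in input, and were dropped before scaling, which left 16428115 to 17674174 counts in IP and 16654925 to 23044301 in input. In the HFD animals the same 3 RNAs took 17.7% to 20.03% in IP and 6.58% to 9.67% in input, so the share that these RNAs take moved with IP against input in both diets. Values below are CPM, the counts that remained scaled to a common library size, given in the order of animals 489, 555 and 556, and each log2 fold change is IP over input within animals with its standard error (SE). Animals differed widely, and the common biological coefficient of variation was 91.95%. Across 14253 genes, log2 values correlated at 0.792 to 0.806 between IP libraries, 0.843 to 0.878 between inputs and 0.802 to 0.837 between an IP and the input of the same animal, a description across genes, which are not independent. Over all tested genes the median log2 fold change was -0.18 and 43.9% of genes lay above 0, so a gene or class is read against that level. In pulldown and input alike, fewer cells of a type and less RNA per cell cannot be told apart.

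Sequences of 6 genes from either end of the comparison are shown for their base composition, to which the results return. For each, the middle 30 codons of the coding sequence are given from GENCODE on GRCm38 (mm10), with a G or C that ends a codon in capitals. The first 3 are among the protein-coding genes with the smallest p on the higher side, and the last 3 among those on the lower side.
Ppp1r9b, chr11:94991212-95006898: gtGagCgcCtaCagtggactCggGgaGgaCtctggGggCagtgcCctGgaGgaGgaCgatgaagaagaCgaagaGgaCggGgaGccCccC
Plec, chr15:76170974-76231378: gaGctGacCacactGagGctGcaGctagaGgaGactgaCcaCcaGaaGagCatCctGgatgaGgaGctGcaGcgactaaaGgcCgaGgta
Ank1, chr8:22974836-23150501: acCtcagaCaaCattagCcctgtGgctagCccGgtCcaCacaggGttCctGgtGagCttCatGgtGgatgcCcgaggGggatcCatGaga
Snap25, chr2:136713439-136782428: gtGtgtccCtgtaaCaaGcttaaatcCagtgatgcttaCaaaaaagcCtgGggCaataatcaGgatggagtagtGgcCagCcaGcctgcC
Ndufa9, chr6:126821863-126849144: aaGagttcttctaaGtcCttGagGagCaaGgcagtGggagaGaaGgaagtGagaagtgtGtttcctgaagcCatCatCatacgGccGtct
Fubp3, chr2:31572643-31617526: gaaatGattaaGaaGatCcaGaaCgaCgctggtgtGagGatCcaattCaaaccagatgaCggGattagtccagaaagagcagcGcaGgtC

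Of the 30 codons, 22 end in G or C in the Ppp1r9b stretch, 23 in Plec and 21 in Ank1, against 15 in Snap25, 17 in Ndufa9 and 16 in Fubp3. Over the whole coding sequence, G or C ended 76.7% of codons of Ppp1r9b, 75.5% of Plec and 66.6% of Ank1, against 59.4% in Snap25, 52.6% in Ndufa9 and 55.7% in Fubp3. Not all genes among the smallest p follow this order. The share was 51.3% in Prrc2a, which was higher in IP, and 93.8% in Hnrnpa0, which was lower. Over all tested genes with a value the median share was 60.9%, with quartiles of 51.8% and 68.5%. Snap25, Ndufa9, Fubp3 and Ank1 lie between these quartiles. The coordinates span each gene from start to end, exons and introns, in the RefSeq annotation of the same assembly.

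Ppp1r9b had the smallest p of the genes higher in IP. It measured 350.1, 302 and 394 CPM in the inputs and 1702, 883 and 1339 CPM in the IP libraries, so that every IP lay above every input, with a log2 fold change of 1.86 (SE 0.30, n = 3 animals), and the adjusted p by edgeR was 0.00092. It was called in each of the 13 other settings tried. Plec, Ank1 and Ttbk1 came close behind in rank, and the adjusted p by edgeR was 0.00175 for all of them.

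The class of spectrins, ankyrins and actin crosslinkers, the proteins of the membrane skeleton and of links between actin and other filaments, held 18 tested members, of which 7 rose, 0 fell and 11 were not called. The class share of 7 in 18 stands against 0.66% of all genes called higher. Among 955 genes with at least 50 CPM in input and a long, GC-rich coding sequence, described below, 49 were called higher. The class held 2 calls with the trend over GC and length removed. The list of this class and the others were chosen with earlier results of these data known, so such shares are descriptions and were not tested. Plec measured 221, 114 and 103 CPM in input and 1359, 225 and 579 CPM in IP, a log2 fold change of 2.04 (SE 0.34). Its highest IP value belonged to animal 489, and input and IP did not overlap. The call of Plec was kept in 12 of 13 other settings and lost with that trend removed.

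Ank1, an ankyrin that ties spectrin to membrane proteins and is best known from red blood cells, measured 30.1, 7.93 and 62.9 CPM in input and 239, 125 and 289 CPM in IP, a log2 fold change of 3.05 (SE 0.52). Its partner Sptb, the beta spectrin of red blood cells, brain and muscle, measured 193, 185 and 118 CPM in input and 1594, 295 and 455 CPM in IP, with a log2 fold change of 1.89 and an edgeR adjusted p of 0.0106. The hemoglobin genes were at 0 counts in all 6 libraries but for 2 counts of Hbb-b1, and Alas2, the heme synthesis enzyme of erythroid cells, had 75, 588 and 583 counts in input and 10, 5 and 10 counts in IP, with an edgeR adjusted p of 0.402, and was called lower by DESeq2. Ank2, the neuronal ankyrin-B, rose by a log2 fold change of 1.28, Actn4 (alpha-actinin 4) by 2.02 and Dst (dystonin, a giant linker of the cytoskeleton) by 1.21.

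Of the 11 members that were not called, 7 lay above 0 and 4 below, among them Sptbn1 at 0.85 with an edgeR adjusted p of 0.114 and Sptan1 at 0.82 with 0.183. The class median was 0.87 against -0.18 over all tested genes, and its summed level differed from input by 1.70, 0.51 and 0.998 on the log2 scale in the 3 animals. Animal 489 carried the largest difference, and 3 members were called without that animal, 9 without 555 and 5 without 556. All 7 called members were above 0 in the HFD animals too, where the class median was 0.65.

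Postsynaptic scaffolds, which anchor receptors and signalling enzymes at excitatory synapses, held 18 tested members. Against 0.66% of all genes called higher, 2 of the members rose and 16 were not called. Beside Ppp1r9b this was Shank1, at chr7:44308916-44360094, which measured 1597, 1742 and 1472 CPM in input and 5281, 2898 and 4110.1 CPM in IP. Its log2 fold change was 1.32 (SE 0.25), and the adjusted p by edgeR was 0.00587. The groups did not overlap. The call of Shank1 was kept in 11 of 13 other settings, and lost without animal 489 and with the trend over GC and length removed. Of the 18 members, 16 lay above 0 and in 11 the IP and input values did not overlap, against 15.2% of all tested genes. Camk2a, the calcium/calmodulin-dependent kinase of excitatory synapses, measured 3629, 4767 and 4213 CPM in input and 8349.7, 5782 and 7097 CPM in IP, with a log2 fold change of 0.74 and an edgeR adjusted p of 0.115, which misses the threshold. Homer1 (-0.56) and Homer2 (-0.13) were the members below 0. The class median was 0.78, and 0.63 in the HFD animals.

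Proteins of vesicle release at the presynaptic side went both ways. Bsn (bassoon, a giant scaffold of the active zone) measured 1132, 1149 and 1192 CPM in input and 3573, 2483 and 2627 CPM in IP, a log2 fold change of 1.30 (SE 0.26), and the adjusted p by edgeR was 0.0118. The call of Bsn was kept in 10 of 13 other settings, over which its log2 fold change went as low as 0.10. It was lost without animal 489, without the pairing by animal and with the trend over GC and length removed. Snap25 measured 6986, 12408 and 10741 CPM in input and 3306, 7169 and 6011 CPM in IP, a log2 fold change of -0.90 (SE 0.19), and the adjusted p by edgeR was 0.0165. The call of Snap25 was kept in 8 of 13 other settings. It was lost without animal 489 or 556, without the pairing, by likelihood ratio test and with the trend over GC and length removed. Snap25 was lower in IP in every animal, while the highest IP value, that of animal 555, passed the lowest input, that of animal 489. Of 21 tested members 1 rose, 1 fell and 19 were not called, with a class median of 0.33. Over all tested genes 0.66% were called higher and 0.267% lower. Per length, on the FPKM scale, Snap25 was still the highest gene of the pulldown at a mean of 2593 against 4741 in input.

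Where 0.66% of all tested genes were called higher, motor proteins, neurofilament and microtubule genes and voltage-gated channels gave 1 call each, all higher. These were Kif1a, the axonal motor of synaptic vesicle precursors, among 15 motor proteins (0.94, edgeR adjusted p 0.0472), Map1a, a microtubule-associated protein, among 20 neurofilament and microtubule genes (0.88, adjusted p 0.0797), and Scn2b, a sodium channel beta subunit, among 23 voltage-gated channel genes (1.22, adjusted p 0.077). The medians of the 3 classes were 0.33, 0.05 and 0.41. Each of these 3 calls was lost in at least 1 of the fits that left out an animal, and without the pairing by animal. Slc6a17, a transporter of synaptic vesicles, was the only call among 257 solute carriers, at 1.09 with an edgeR adjusted p of 0.0797. That is 0.389% of the list, under the 0.66% of all tested genes called higher. Receptors of glutamate and GABA (23 tested) and markers of striatal neurons (9 tested) had 0 calls with edgeR and 4 and 1 members with an unadjusted p under 0.05, with 3 and 0 calls by DESeq2. Of 9 cortical neuron markers 0 were called by edgeR and 1 by DESeq2, 3 had an unadjusted p under 0.05 and 8 lay above 0, and their summed level was 1.03, 0.39 and 0.72 above input on the log2 scale. The general neuron markers went the other way in their sum, which was 12254, 17934 and 15572 CPM in input and 8624, 12468 and 11682 CPM in IP, a log2 difference of -0.51, -0.52 and -0.41 (mean -0.48 ± 0.059 SD, n = 3). Of its 12 members 1 fell (Snap25), 0 rose, 7 lay below 0 and the median was -0.06, and Snap25 gave the larger part of the sum in input. Snap25 alone went from 6986, 12408 and 10741 CPM in input to 3306, 7169 and 6011 CPM in IP. The fall of the sum is thus largely that of 1 gene and is not a fall of the list.

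Among the other genes with the smallest p on the higher side, Ttbk1 (tau tubulin kinase 1) measured 60.7, 15.7 and 46.5 CPM in input and 283, 124 and 258 CPM in IP, a log2 fold change of 2.56. Git1, an adaptor of Arf and Rac signalling, measured 409, 255 and 417 CPM in input and 1005, 522 and 2345 CPM in IP, with the highest value in animal 556. The call of Git1 was lost without animal 556 and with the trend over GC and length removed. Adrbk1, whose RefSeq symbol is Grk2, the kinase that phosphorylates active G protein-coupled receptors, measured 82.9, 88.2 and 95.6 CPM in input and 239, 396 and 444 CPM in IP, a log2 fold change of 1.97 (SE 0.37). It was called in all 13 other settings. Prrc2a, an RNA-binding protein, rose by 1.46, Iqsec1, an exchange factor for Arf6, by 1.61, and Agap2, a GTPase-activating protein for Arf, by 1.36. All 94 genes of the higher side were above input in each of the 3 animals, and in 92 the 3 IP values lay above the 3 inputs. Their log2 fold changes ran from 0.88 to 7.09 with a median of 1.60. Ranges did not overlap in 15.2% of all tested genes. The test on these same libraries chose the 94 genes, so their agreement across animals is a description and no separate support.

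**Figure D1:**
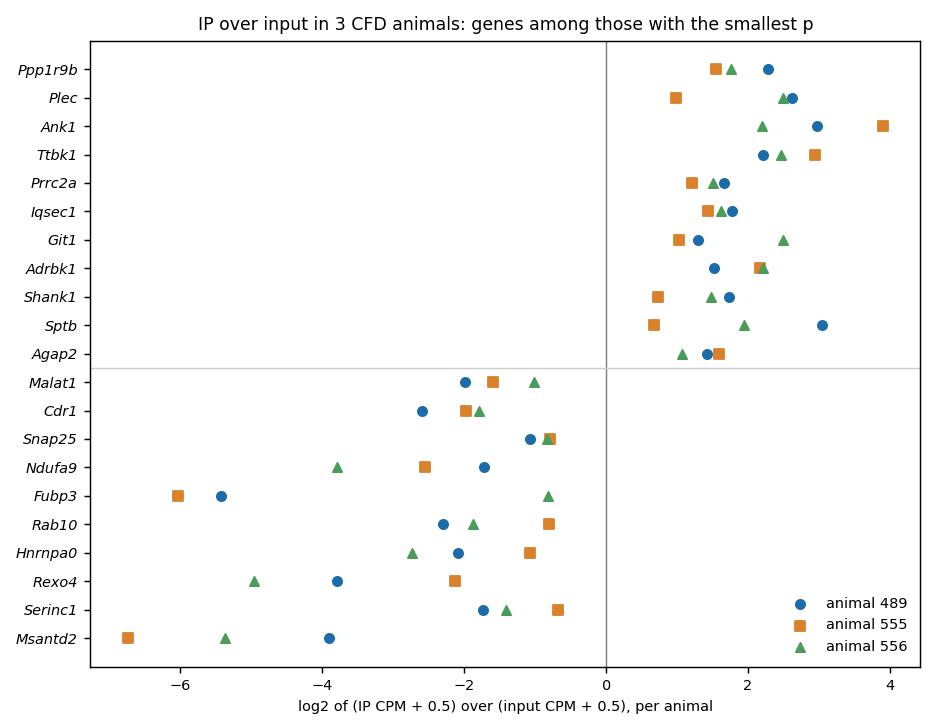
Log2 ratio of IP over input CPM (x axis, 0.5 CPM added to both) in each of 3 CFD animals (points) for genes among those with the smallest p in each direction. All points of the 11 higher genes shown lie right of 0 and all points of the 10 lower genes shown left of 0, and Fubp3 and Msantd2 reach furthest left.

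Long noncoding RNAs that stay largely in the nucleus, away from ribosomes, formed the class with the most edgeR calls on the lower side of the 37 lists. Of 16 tested, 3 fell, 0 rose and 13 were not called, against 0.267% of all genes called lower. DESeq2 called 3 lower and 2 higher, and 0 were called without the pairing by animal. Malat1, a highly abundant RNA of nuclear speckles, at chr19:5795690-5802672, measured 10227, 9414 and 9228 CPM in input and 2586, 3105 and 4578 CPM in IP, with no overlap. Its log2 fold change was -1.53 (SE 0.22, n = 3 animals), and the adjusted p by edgeR was 0.000211. It was called when any 1 animal was left out. Its adjusted p was 0.193 without the pairing by animal and 0.207 by DESeq2.

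Meg3, a maternally expressed imprinted RNA, measured 2231, 904 and 1028 CPM in input and 417, 523 and 748 CPM in IP, a log2 fold change of -1.21 with an edgeR adjusted p of 0.0797. Miat measured 141, 135 and 116 CPM in input and 11.6, 10.1 and 109 CPM in IP, a log2 fold change of -2.61 with an edgeR adjusted p of 0.0558. Animal 556 held most of its Miat in the pulldown while animals 489 and 555 held little. Each of these calls was kept in 6 of 12 other settings. The call of Meg3 was lost without animal 489 and that of Miat without 489 or 555. Neat1, the scaffold RNA of paraspeckles, measured 41.9, 27.4 and 65.3 CPM in input and 9.83, 5.99 and 2.72 CPM in IP, with a log2 fold change of -2.91 and an edgeR adjusted p of 0.208. Against these, Peg13 (0.97, adjusted p 0.25) and Rian (1.06, adjusted p 0.314) lay above 0. The summed level of the class was 14757, 11952 and 11817 CPM in input and 4553, 5655 and 6935 CPM in IP, and 4 of the 16 members lay above 0. Malat1 alone gave 10227, 9414 and 9228 CPM of the input sums and 2586, 3105 and 4578 CPM of the IP sums. The fall of the sum is thus largely that of 1 RNA.

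Cdr1, at chrX:61183246-61185558, measured 1291, 3472 and 3440.3 CPM in input and 214, 883 and 989 CPM in IP. Its log2 fold change was -2.12 (SE 0.31), and the adjusted p by edgeR was 0.000211. The groups did not overlap. The locus gives a circular RNA from the strand opposite the annotated gene, an RNA abundant in brain and known for its many sites for miR-7, and it is not known to be translated. The strand setting of the counting is not given in the sources used here, so Cdr1 and the RNA antisense to it cannot be told apart in these values. The mature miRNA from RefSeq, with its seed (bases 2 to 8) in capitals, and 1 of the matches in the locus, with the 7 letters that pair with the seed in capitals, are as follows.
mmu-miR-7a-5p: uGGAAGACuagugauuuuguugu
Cdr1 locus, chrX:61183261-61183290, plus strand, GRCm38: gccagtaccaagGTCTTCCaacatctccag

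The letters GTCTTCC occurred 112 times on the plus strand of the 2313 bases of the locus and 0 times on the minus strand. Of 70585 windows of the same length along chromosome X, 14.9% held at least 1 match on that strand, and the highest number outside the locus was 10. A match is a description of sequence and not a measured site. In the HFD animals Cdr1 was lower as well, by a log2 fold change of -1.46 with an edgeR adjusted p of 0.0767, beside Malat1 at -1.28 with 0.0152, and these were the 2 genes called lower there.

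Ndufa9, a subunit of respiratory complex I, fell from 62.3, 284 and 75.4 to 18.5, 48.3 and 5.01 CPM, a log2 fold change of -2.72 (SE 0.58, edgeR adjusted p 0.0167). The call was kept in 9 of 13 other settings and lost without animal 556. Psma5, a subunit of the proteasome core, fell from 43.9, 52.5 and 41.8 to 16.9, 0.185 and 2.79 CPM, by -4.13 (SE 1.15, edgeR adjusted p 0.0959). Its call was kept in 5 of 13 other settings and lost without animal 555 or 556. Fubp3, an RNA-binding regulator, measured 46.7, 44.2 and 48.4 CPM in input and 0.598, 0.185 and 27.3 CPM in IP, near 0 in animals 489 and 555 and higher in 556. The call of Fubp3 was kept in 9 of 13 other settings and lost without animal 489.

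Rab10, a GTPase of vesicle transport, fell by a log2 fold change of 1.67, Hnrnpa0, a nuclear RNA-binding protein, by 1.98, Serinc1 by 1.28, and Gad2, a GABA-synthesizing enzyme, by 1.03. The calls of Rab10, Hnrnpa0 and Serinc1 were each kept in 8 of 13 other settings and lost without animal 489 or 556. Of the 38 genes on the lower side all 38 were below input in every animal, in 35 the groups did not overlap, and 5 were at 3 counts or fewer in all 3 IP libraries. These genes too were chosen by the test on the same libraries, and ranges did not overlap in 15.2% of all tested genes. Odf2l had 196, 829 and 391 counts in input and 0, 0 and 0 in IP, and was at least 111-fold lower, taking 3 counts per library as the floor. Msantd2 had 129, 1315 and 432 counts in input and 0, 1 and 0 in IP, and was at least 144-fold lower. Both rest on inputs that differ several-fold among animals, and the call of Msantd2 was lost whichever animal was left out.

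Transcripts of the tagged gene, of the driver and of the endothelial list are given next. The tag is on the protein, so the levels of the Rpl22 and Tek transcripts do not measure which ribosomes carried it. Rpl22, at chr4:152324436-152334082, the gene that carries the tag, measured 24.3, 22.9 and 28.5 CPM in input and 28.0, 47.9 and 79.3 CPM in IP, a log2 fold change of 0.92 (SE 0.68), and the adjusted p by edgeR was 0.739. Its paralog Rpl22l1 measured 20.9, 17.5 and 34.4 CPM in input and 5.51, 3.83 and 6.80 CPM in IP, with a log2 fold change of -2.15 and an adjusted p of 0.59. Neither passed the test, although Rpl22 was higher and Rpl22l1 lower in every animal. Tek, whose promoter drives Cre, had 4, 3 and 0 counts in input and 0, 0 and 80 counts in IP, so its transcript was seen in the pulldown of animal 556 alone.

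Of 27 endothelial genes 22 passed the filter on low counts and 0 were called by edgeR, 1 had an unadjusted p under 0.05, and DESeq2 called 1 higher and 1 lower. EdgeR called 0.926% of all tested genes, so 0 calls in a list of this size lie near that share. Cldn5, the tight junction protein of brain endothelium, had 0, 0 and 0 counts in input and 0, 0 and 9 in IP. Pecam1 had 53, 8 and 0 counts in input and 37, 1 and 3 in IP, and Cdh5, the cadherin of endothelial junctions, had 26, 2 and 0 and 1, 6 and 17. These defining markers were at or near 0 in most of the 6 libraries, input included, where 1 count was worth about 0.05 CPM.

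Slc2a1, the glucose transporter Glut1 of the blood-brain barrier, at chr4:119108745-119137330, measured 36.98, 4.55 and 20.1 CPM in input and 80.5, 71.4 and 91.2 CPM in IP. It was above input in all 3 animals with no overlap, by a log2 fold change of 2.40 (SE 0.74). The adjusted p by edgeR was 0.168, and the log2 fold change was 0.12 in the HFD animals. Kdr, the receptor VEGFR2, went the other way, with 98, 103 and 145 counts in input and 24, 42 and 0 in IP. These were the 2 genes, of the 22 tested in the list, whose IP and input values did not overlap, against 15.2% of all tested genes.

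The summed level of the 27 endothelial genes was 93.0, 98.9 and 74.5 CPM in input and 107, 198 and 522 CPM in IP, higher in each animal by 0.20, 1.002 and 2.81 on the log2 scale (mean 1.34 ± 1.33 SD, n = 3), with a different gene behind each sum. The mean was 0.60 without animal 556, 1.51 without 555 and 1.91 without 489. In animal 489 Slc2a1 gave 80.5 CPM of the pulldown's sum. In animal 555 Mfsd2a, the lipid transporter of the blood-brain barrier, gave 105 CPM, with 7, 1705 and 13 counts over the 3 IP libraries. In animal 556 Egfl7, a factor secreted by endothelial cells, gave 261 CPM and Vwa1, a matrix protein, 123 CPM, with 37, 25 and 3650 and 93, 13 and 1721 counts over the 3. The fitted median of the 22 tested genes was -0.72, or -1.20 with genes at the floor set to their bound, but 0.44 without the pairing by animal, so the list had no direction that held across fits. An exact permutation test of 3 pairs cannot give a two-sided p below 0.25.

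**Figure D2:**
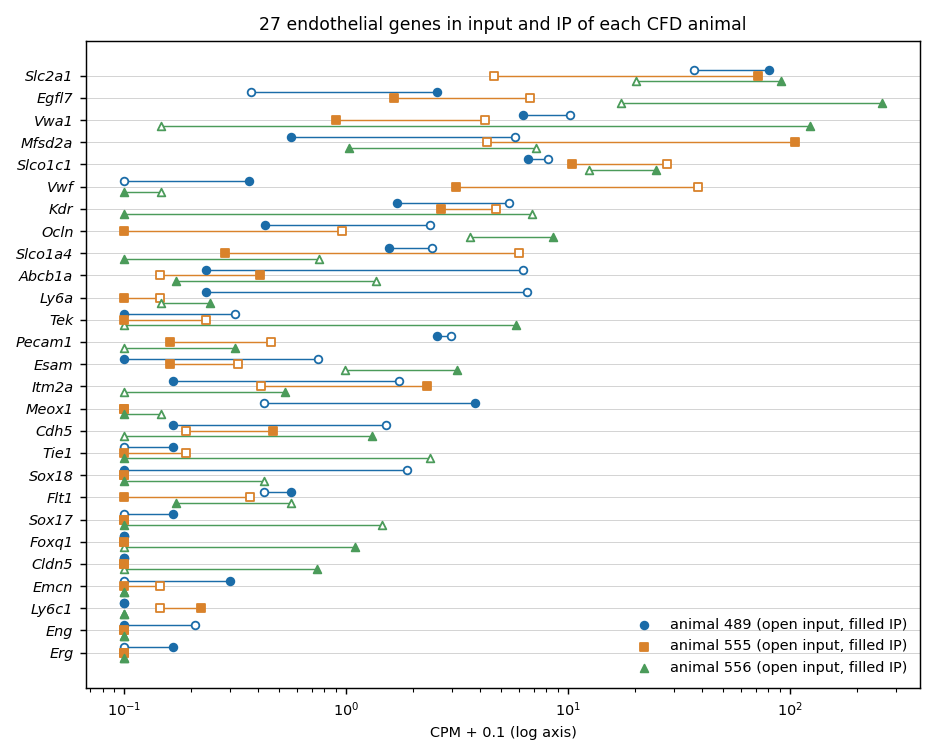
Level of 27 endothelial genes (x axis, CPM plus 0.1 on a log axis) in the input (open) and IP (filled) of each CFD animal. Most genes lie under 10 CPM in all libraries, and the filled points of Egfl7 and Vwa1 in animal 556 and of Mfsd2a in animal 555 stand far to the right of their open points.

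Lists of the other cells of white matter likewise gave 0 calls by edgeR, which called 0.926% of all tested genes. For lists this short, 0 calls lie near that share. Of 15 mural cell genes, 9 were tested and 2 lay above 0. Myl9 had 1, 2 and 0 counts in input and 365, 0 and 0 in IP, and Notch3 had 216, 120 and 5 counts in input and 0, 0 and 283 in IP, each from 1 animal. The 11 perivascular fibroblast genes were led by Igf2, at 107, 152 and 57.7 CPM in input and 50.2, 58.6 and 39.5 CPM in IP with an edgeR adjusted p of 0.61, and their sum differed from input by -1.05, -1.20 and -0.40 on the log2 scale. Of 18 genes of microglia and macrophages, which share markers with cells of the blood lineage, 5 lay above 0, and their sum was 249.7, 244 and 406 CPM in input against 248, 263 and 276 CPM in IP. Unadjusted p under 0.05 was reached by 0 mural, 0 fibroblast and 1 microglial gene, and DESeq2 called 1 gene lower in each of the 3 lists.

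The 16 astrocyte genes had a median of 0.30 and the 18 oligodendrocyte and myelin genes one of -0.05. Slc1a2, the glutamate transporter of astrocytes, measured 4834, 5695 and 6210.3 CPM in input and 3944, 9652 and 11577 CPM in IP, and Mbp, myelin basic protein, 2519, 2422 and 2164 and 5776, 2628 and 2691 CPM, with log2 fold changes of 0.46 and 0.54 and edgeR adjusted p of 0.521 and 0.438. The 16 OPC genes had a median of 0.25, with Sdc3 at 1.13 and Pdgfra, the receptor that marks these cells, at -1.71 (adjusted p 0.294 and 0.657). In these 3 lists edgeR called 0 genes, against 0.926% of all tested genes. At an unadjusted p under 0.05, 3, 3 and 2 genes were higher and 1, 2 and 0 lower, and DESeq2 called 0, 1 and 1 higher and 1, 2 and 1 lower. The neuronal transcript Camk2a alone measured 3629, 4767 and 4213 CPM in input and 8349.7, 5782 and 7097 CPM in IP. The sum of the endothelial list was 93.0, 98.9 and 74.5 CPM in input and 107, 198 and 522 CPM in IP. CPM of different genes does not give the share of cells, and the make-up of the tissue was not tested. Ttr, the thyroid hormone carrier of choroid plexus, was the call among 7 ependymal and choroid plexus genes, at 1069, 1337 and 251 CPM in input and 535, 835 and 105 CPM in IP, with a log2 fold change of -0.98 and an edgeR adjusted p of 0.0755. The call was kept in 5 of 13 other settings and lost without animal 489 or 556. Over all tested genes 0.267% were called lower.

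**Figure D3:**
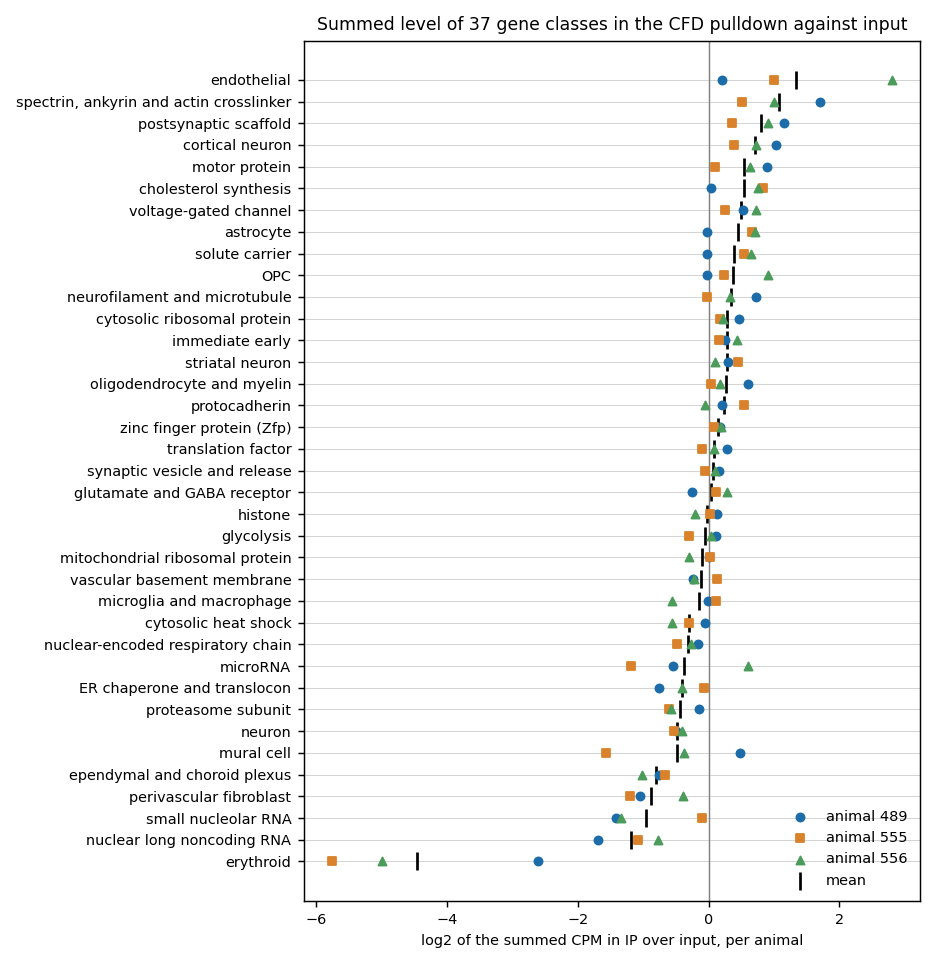
Log2 of the summed CPM in IP over input (x axis) for each of 37 gene classes in 3 CFD animals (points), with the mean over animals (bar). Spectrins, ankyrins and crosslinkers lie at 1.70, 0.51 and 0.998 and nuclear long noncoding RNAs at -1.70, -1.08 and -0.77, and the endothelial list spreads from 0.20 to 2.81. Malat1 makes up the larger part of the sum of the nuclear long noncoding RNAs.

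Genes of the translation machinery and of basic metabolism gave few calls. Of 81 cytosolic ribosomal protein genes, whose mRNAs carry a motif that ties their translation to growth signals, 54 lay above 0. Against 0.66% of all genes called higher, 1 gene of this list (1.23%) was called. This was Rpsa, which measured 86.2, 102 and 88.4 CPM in input and 272, 259 and 401 CPM in IP, a log2 fold change of 1.73 (SE 0.37), and the adjusted p by edgeR was 0.0184, a call lost without animal 489 or 556. Processed copies of ribosomal protein genes are common in the mouse genome, so its counts are uncertain where reads could be shared. The class median was 0.24 in CFD and -0.21 in HFD animals. Mitochondrial ribosomal proteins (77 tested) had a median of -0.58, translation factors (60) -0.28, respiratory chain subunits encoded in the nucleus (87) -0.31, proteasome subunits (38) -0.55, chaperones and translocon subunits of the endoplasmic reticulum (21) -0.71 and cytosolic heat shock proteins (16) -0.39. Beside Ndufa9 and Psma5 none of these was called by edgeR, while 8 translation factors, 7 respiratory chain subunits, 4 proteasome subunits, 3 chaperones of the endoplasmic reticulum and 4 heat shock proteins were lower at an unadjusted p under 0.05. At the same level 2 translation factors and 1 mitochondrial ribosomal protein were higher, and DESeq2 called 2 translation factors higher and 6 lower. Over all 14253 tested genes, 1357 had an unadjusted p under 0.05 in either direction.

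Nab2, a corepressor of the early growth response factors, was the edgeR call among 20 immediate early genes, at 51.5, 72.6 and 106 CPM in input and 248, 329.8 and 165 CPM in IP. The adjusted p by edgeR was 0.0946, and the call was lost without animal 489 or 555, without the pairing, in the CFD libraries alone and with the trend over GC and length removed. No call by edgeR, which called 0.926% of all tested genes, fell among 33 histone genes, 336 zinc finger (Zfp) genes, 66 protocadherins, 20 cholesterol synthesis genes, 16 glycolysis genes, 13 genes of the vascular basement membrane, 32 microRNA genes and 8 small nucleolar RNAs. In these lists 1, 10, 0, 1, 1, 1, 0 and 0 genes were higher and 2, 13, 3, 0, 1, 1, 0 and 0 lower at an unadjusted p under 0.05, and DESeq2 called 0 histone, 10 Zfp, 1 protocadherin and 1 basement membrane gene higher and 1, 31, 6 and 1 lower, with 0 in the other 4 lists.

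The length and base composition of the coding sequence, which no list used, moved with the ratio of IP to input. Called higher genes had a median coding sequence of 2541 bases with 57.5% GC (93 of 94 genes with a value), called lower genes 1362 bases with 47.2% GC (33 of 38), and all tested genes 1410 bases with 53.02% GC. Over 10 bins of equal size by coding GC content, from the lowest to the highest, the median log2 fold change went from -0.79 to 0.29, and from -0.29 to 0.28 by coding length. The top bin by length held 34 of the genes called higher (2.53% of the bin) and the top bin by GC 27 (2.01%). The bottom bin by GC held 9 of the genes called lower (0.67%). Over all tested genes 0.66% were called higher and 0.267% lower. Median input was 51.1 CPM in the top and 16.4 CPM in the bottom bin by length, and 12.9 and 21.5 CPM by GC. What part the input level had in the counts by bin was not tested.

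Among genes chosen on input level alone, with a mean of at least 50 CPM there, those with a coding sequence over 1677 bases and over 51.8% GC (n = 955) had a median of 0.45, with 49 called higher and 0 lower. Those below both values (n = 963) had a median of -0.33, with 0 higher and 13 lower. The long genes low in GC (n = 1033) had 8 higher and 6 lower, and the short genes high in GC (n = 1040) 15 and 6. Over all tested genes, at any input level, 0.66% were called higher and 0.267% lower. Within animals the medians of the long, GC-rich genes were 0.58, 0.24 and 0.57 and those of the short, GC-poor genes -0.37, -0.31 and -0.29, so each animal showed the same order. Spearman's rho between coding GC and the log2 fold change was 0.229 over 13422 genes and 0.456 over the 3991 genes at 50 CPM or more, and that of coding length 0.117 and 0.214, given as descriptions across genes, which share libraries and depth.

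With each library's trend over coding GC and length removed, an alternative chosen after the data were seen, 8 genes were called higher and 4 lower, all of them among the 94 and 38. These were Ppp1r9b, Ank1, Ank2, Adrbk1, Rpsa, Flot2, Mfsd6 and Tunar on the higher side, with log2 fold changes of 1.31, 2.30, 1.10, 1.80, 1.65, 2.15, 1.58 and 2.86, and the lower side included Cdr1, Hnrnpa0 and Fubp3, with -1.59, -2.24 and -5.32. Of the genes that had a value, 92 of 93 higher and 33 of 33 lower kept their sign, and the median of the higher genes went from 1.60 to 1.16. The gene that changed sign was Map1a, at -0.07. Under this alternative the median of the postsynaptic scaffolds was 0.33 and that of the voltage-gated channels 0.01, and the spectrin class held 2 calls. Malat1 has no coding sequence and could not enter it. What part GC content, length or the share of counts in the 3 dropped RNAs had in the calls was not tested.

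**Figure D4:**
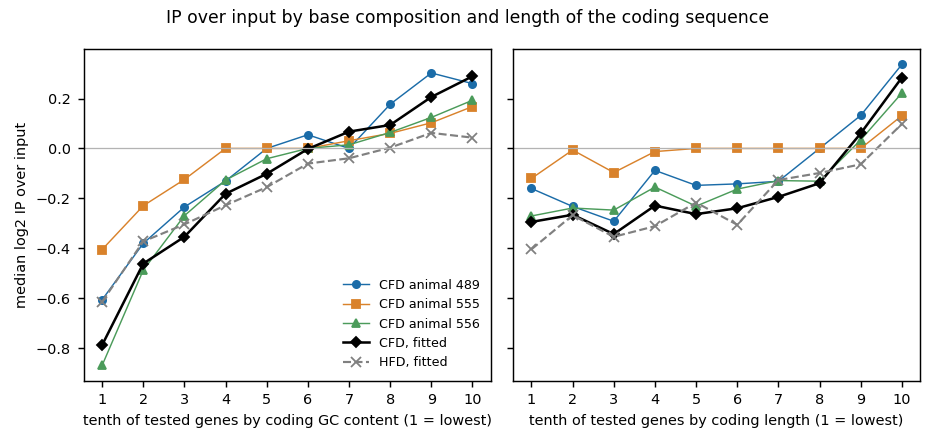
Median log2 ratio of IP over input (y axis) in 10 bins of the tested genes by coding GC content and by coding length (x axes, 1 = lowest), for each CFD animal, the CFD fit and the HFD fit. The CFD line climbs from -0.79 to 0.29 over GC and from -0.29 to 0.28 over length, and the HFD line climbs in the same direction.

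Few well-expressed genes were missing from the pulldown. Of 6761 genes with at least 10 CPM in every input, 83 (1.23%) had 3 counts or fewer in at least 1 IP library, 6 in animal 489, 36 in 555 and 51 in 556. Odf2l was missing from all 3. None of the 3013 genes with at least 50 CPM in every input was missing from an IP. In the opposite direction, 16 of 5921 genes at 10 CPM in every IP were missing from an input. Signal from 1 library alone was more frequent in the pulldown: of 8779 genes with a mean of at least 10 CPM in IP, 713 (8.12%) had over 80% of it in 1 library, against 201 of 8901 (2.26%) in input. After the 3 RNAs were dropped the IP libraries held 16428115 to 17674174 counts and the inputs 16654925 to 23044301, and what part depth had in this was not tested.

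The same contrast in the HFD animals called 18 genes higher and 2 lower, 0.14% of the genes tested, with a median over all genes of -0.23. This count rested on single animals, with 1 higher and 1 lower without animal 516, 0 and 0 without 517, and 204 and 30 without 676. Of the 94 genes higher in CFD IP, 90 (95.7%) had a fitted value above 0 in HFD animals, where 40.7% of all tested genes did, 54 at an unadjusted p under 0.05 and 5 at the threshold. Of the 38 lower genes 30 (78.9%) were below 0, where 59.3% of all tested genes were, 5 at an unadjusted p under 0.05 and 2 at the threshold. Over all 14253 tested genes, 810 had an unadjusted p under 0.05 in the HFD animals, in either direction. The median of the 94 genes was 1.60 in CFD and 0.81 in HFD, that of the 38 genes -2.17 and -0.44.

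Shank1 (1.18), Bsn (1.24), Prrc2a (1.30) and Ppp1r9b (1.32) were among the genes called in both diets, with the HFD log2 fold changes given in parentheses. Ank1 (0.94), Git1 (0.40) and Adrbk1 (0.41) had lower values there, and Snap25 (-0.16) lay closer to 0. The CFD values of these genes chose them, so values nearer 0 in the other animals are read as a description. The test of the difference between the diets called 0 genes with edgeR's quasi-likelihood test, 5 with its likelihood ratio test, 1 with limma voom and 227 with DESeq2, and 495 genes had an unadjusted p under 0.05.

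**Figure D5:**
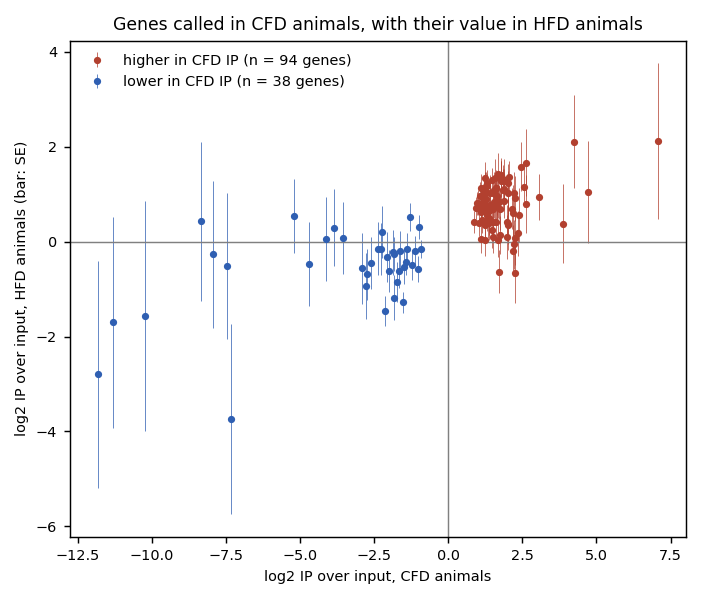
Log2 IP over input in CFD animals (x axis) and HFD animals (y axis, bars are SE) for the 94 genes called higher and the 38 called lower in CFD IP. Of the higher genes 90 lie above 0 on the y axis and of the lower genes 30 lie below it, mostly nearer to 0 than on the x axis.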

How the data were processed

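White matter RNA from Tie2-Cre:Rpl22-HA mice was sequenced as an anti-HA pulldown and an input library per animal. Per the labels and the methods, the authors aligned paired-end reads to mm10 with STAR and used HTSeq (versions, annotation and strand setting not given in the sources used here), and the labels and the methods name different library kits. The authors deposited 1 table of raw counts per gene and library, with FPKM values and a scaled signal per library. From the deposited FPKM only the length of each gene was taken, and the deposited signal entered no step. The table's log2 fold changes and p-values of the authors' own edgeR comparisons, and 6 columns of per-animal ratios, were not used.

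The fits used edgeR 4.0.16 under R 4.3.3. Rn45s, Lars2 and Mir6236 were dropped from 24060 genes, filterByExpr (minimum count 10, minimum total 15) kept 14253, and TMM scaled the libraries. A quasi-likelihood model with a block per animal and 1 IP coefficient per diet was fitted to all 12 libraries (4 residual degrees of freedom), and an adjusted p under 0.1 (Benjamini-Hochberg, over all genes tested) was called, the threshold of the study. IP and input of 1 sample number were taken to come from the same mouse. Their deviations from the group means correlated across genes at 0.040, 0.0057 and 0.018 in animals 489, 555 and 556, and those of an IP and the input of another animal at -0.013 (median). Replicates are separate animals. Class medians are medians of fitted values, a summed level adds the CPM of all listed members, and single ratios had 0.5 CPM added. The analysis was tested on simulated counts.

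GENCODE transcripts of GRCm38 were matched by RefSeq accession for 18920 genes, Entrez number for 198 and symbol for 4440, with 502 unmatched. RefSeq coordinates of the same assembly were matched for 23632. Named genes were at most 12 in each direction with the smallest p, up to 4 called or the 2 most abundant members of each of 37 lists, the tag and driver genes, the markers the study plotted and the most abundant genes, and not every one is printed. Genes outside that rule, such as those called after trend removal, were named after their values were seen. The comparison, the lists and the genes were chosen with earlier results of these data known. Alternatives were no block, RLE scaling, keeping the 3 RNAs, no filter, the 6 CFD libraries alone, a likelihood ratio test, DESeq2 1.42.0, limma voom (limma 3.58.1), an adjusted p under 0.05 and leaving out each animal. Removal of the GC and length trend, and the leave-outs in HFD animals, were added after the data were seen. Some genes are not reported here.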

Additional observations from a re-analysis of the deposited data

Results flagged for a closer look

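In 4 named genes and 2 gene classes, of 194 genes and 37 classes checked, the ratio of IP to input lay on opposite sides of 0 in all 3 animals of each diet. For the genes the difference, HFD minus CFD, was tested in the same edgeR fit, and the adjusted p for it did not reach the threshold. Serinc1 had log2 fold changes of -1.28 in CFD and 0.52 in HFD animals, a difference of 1.81 (SE 0.42, unadjusted p 0.000114, edgeR adjusted p 0.593). Nab2 had 1.71 and -0.64, a difference of -2.34 (SE 0.65, unadjusted p 0.0009, adjusted p 1 by edgeR). Ttr had -0.98 and 0.30, a difference of 1.28 (SE 0.36, unadjusted p 0.00108, adjusted p 1 by edgeR). Sparc, a matrix protein of endothelial cells and astrocytes that was not called in CFD animals, had -0.74 and 0.45, a difference of 1.18 (SE 0.46, unadjusted p 0.0148, adjusted p 1 by edgeR). The summed level of the ependymal and choroid plexus genes, mostly Ttr, averaged -0.81 in CFD and 0.46 in HFD animals on the log2 scale, a difference of 1.27. That of the chaperones and translocon subunits of the endoplasmic reticulum averaged -0.41 and 0.28, a difference of 0.69. For the 2 sums the difference was not tested.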

How the results depend on the processing

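The 94 and 38 genes called kept their sign in every setting but for Map1a, at -0.066 with the GC and length trend removed. Genes called higher and lower in CFD IP were 18 and 2 without the replicate block (all among the 94 and 38), 57 and 11 in the 6 CFD libraries alone, 138 and 65 with no filter, 89 and 115 by likelihood ratio test, 601 and 806 by DESeq2, 45 and 13 at an adjusted p under 0.05, 8 and 4 with the trend removed, and 34 to 124 and 17 to 45 when an animal was left out. RLE scaling, keeping the 3 RNAs and voom gave 94, 97 and 114 higher and 33, 42 and 27 lower. In HFD animals the counts were 0 and 0 without the block and 0 to 204 and 0 to 30 when an animal was left out, and the diets differed in 7 genes with no filter and 1 to 10 genes when an animal was left out. Of 83 genes missing from an IP, 0 remained at 50 CPM and 19 at 0 counts.

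Medians of classes moved as follows. Endothelial genes were at 0.44 without the block, -1.52 in the CFD libraries alone, 0.57 by voom and -1.17 to 0 without an animal. Mural genes were at -0.30 without the block, -0.95 with no filter, -1.53 in the CFD libraries alone, -0.77 by voom, -1.42 with the trend removed and -1.29 to -0.72 without an animal. Fibroblast genes were at -0.81 by voom, -0.61 with the trend removed and -1.05 to -0.81 without an animal. Microglial genes were at -0.22 without the block, -0.39 with the 3 RNAs kept, -0.42 in the CFD libraries alone and -0.25 by voom. With the trend removed, vesicle release genes were at 0.15, postsynaptic scaffolds at 0.33, channels at 0.0076, long GC-rich genes at -0.025 and short GC-poor genes at 0.12. Vesicle release genes ran from 0.36 to 0.52 and channels from 0.38 to 0.55 without an animal. Short GC-poor genes were at -0.27 both without the block and by voom. All tested genes were at -0.0064 without the block, -0.12 in the CFD libraries alone, -0.064 by voom and -0.23 to -0.11 without an animal. The other 278 class medians, and all 185 summed levels, moved by less than the spread between animals. Causes were not tested.

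Of 35 called genes named, 12 remained called without the block, 24 in the CFD libraries alone, 34 by DESeq2, 28 by likelihood ratio test, 27 by voom, and 15, 29 and 21 without animals 489, 555 and 556. With the trend removed, 8 of the 32 that had a value remained called. With 3 pairs, 4 residual degrees of freedom and 40.4% or more of each IP library in 3 dropped RNAs, precision was limited for genes of low count.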
